A study of Mus musculus with 12 samples.

Results

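The ERK feedback and immediate early genes are 38 genes of 1 signalling pathway among the 43269 genes named in the count table. They were picked by name and not by a rule on measured values, but with earlier results of these data known. They comprise 4 subunits of the FOS type and 3 of the JUN type of the transcription factor AP-1, 3 EGR factors and 3 IER genes. To these come 10 dual-specificity phosphatases (DUSPs), 6 inhibitors of the Sprouty and Spred families, 3 ETS factors of the PEA3 group, 3 KLF factors, and *Myc*, *Phlda1* and *Nr4a1*. All 38 were among the 14673 genes that passed the filter on low counts and were tested, and 36 of the 38 had a mean of at least 20 counts per library.

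ERK is the last kinase of the cascade that runs from receptor tyrosine kinases through RAS, RAF and MEK. Once active, it phosphorylates transcription factors and so turns on immediate early genes, among them FOS, JUN and EGR genes, whose transcription needs no newly made protein. Some of the induced products act back on the cascade: DUSPs remove phosphate from ERK or from the related kinases p38 and JNK, and Sprouty and Spred proteins act upstream of them. ADAM17 is the protease that releases several ligands of the epidermal growth factor receptor from the cell surface, and this receptor feeds into the same cascade.

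The libraries came from MC38CEA, a mouse line labelled as colon adenocarcinoma. Cas9 mRNA and sgRNAs against *Adam17* (*Adam17*-KD) or against EGFP (control) had been introduced by electroporation, so that the control cells received Cas9 mRNA and sgRNA as well. The paper does not say that this line carries EGFP, so that cutting of DNA in control cells cannot be taken as given. *Adam17*-KD cells and control cells were each studied after 6 h with human recombinant IL1β and mouse recombinant IFNγ (10 ng/ml of each), and unstimulated. Each of the 4 groups had 3 biological replicates, and the sources do not say whether these are separate edited populations or repeated cultures of 1 population. The p-values therefore cover the spread between these libraries, which may be technical.

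The 12 libraries held 13156871 to 25443307 counts. *Adam17* stood at 57.2, 59.8 and 62.4 CPM (the count of a gene scaled to the size of its library) in stimulated *Adam17*-KD cells, against 93.8, 111 and 110.3 CPM in stimulated control cells. Unstimulated *Adam17*-KD cells had 49.7, 57.3 and 49.7 CPM, against 77.0, 91.8 and 94.4 CPM in unstimulated control cells, so that the groups did not overlap and a part of the transcript remained. The log2 fold change averaged over both conditions was -0.78 ± 0.08 (adjusted p = 0.00103, edgeR). Of 14 epithelial markers, 12 had fewer than 25 counts over all 12 libraries, with 4 counts of *Epcam* and 0 of *Cldn3*. The other 2, *Muc1* and *Lgals4*, had 238 and 120 counts and made up most of the sum that follows. All 14 together summed to 2.70 to 5.07 CPM in stimulated *Adam17*-KD cells, against 1.90 to 2.32 CPM in stimulated control cells. The sum was 1.28 to 1.99 CPM in unstimulated *Adam17*-KD cells, against 0.730 to 1.21 CPM in unstimulated control cells. Apart from *Muc1* and *Lgals4*, the epithelial markers of the labelled cell type were nearly absent, whereas *Vim*, a mesenchymal marker, was at 2420 to 3671 CPM. *Col3a1* was at 160.5 to 825.1 CPM, *Col1a2* at 66.6 to 251.8 and *Col1a1* at 1.06 to 3.98. *Pdgfra*, *Pdgfrb* and *Dcn* lay between 6.15 and 36.7 CPM. The mesenchymal markers *Lum*, *Acta2* and *Thy1* were nearly absent as well, with 38, 38 and 12 counts over all 12 libraries. Most of the sum that follows was *Vim*. The 10 mesenchymal markers summed to 3547 to 4292 CPM in stimulated *Adam17*-KD cells, against 2682 to 4230 CPM in stimulated control cells, and to 3449 to 4406 CPM in unstimulated *Adam17*-KD cells, against 3171 to 3902 CPM in unstimulated control cells. In the averaged comparison of *Adam17*-KD with control cells, 2 of the 7 mesenchymal markers tested were called higher, and the part of such markers in the results that follow was not tested. The 10 leukocyte markers, 9 of them in the table, summed to 20.2 to 27.3 CPM in stimulated *Adam17*-KD cells, against 18.5 to 31.6 CPM in stimulated control cells, and to 17.6 to 27.1 CPM in unstimulated *Adam17*-KD cells, against 17.1 to 34.8 CPM in unstimulated control cells. Most of this was *Cd14* (12.8 to 30.1 CPM), while the defining markers *Ptprc* and *Cd3e* were at 0.129 CPM at most and at 0. In bulk RNA, fewer cells of a kind and less RNA per cell cannot be told apart.

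Replicate 2 of both control groups stood apart from its group mates, and 13 of the 38 genes were shifted in it in both conditions. The shift was counted over the members alone. The libraries were also compared over all genes with enough counts, as chi-square per degree of freedom, which is larger where 2 libraries differ more. Stimulated control replicate 2 had 68.8 and 67.95 against replicates 1 and 3, which had 15.75 between them. The unstimulated values were 29.74 and 35.71, against 21.86. Replicate 2 thus stood apart over all genes as well. Whether the members were shifted more than other genes was not tested. *Egr1*, a zinc finger factor that is among the first genes induced by ERK, had 28.9, 5.31 and 30.3 CPM in stimulated control cells and 29.9, 6.78 and 31.3 CPM in unstimulated ones, and replicate 2 was the low library in both. In *Adam17*-KD cells *Egr1* was at 22.3, 22.9 and 23.3 CPM with cytokines and at 22.1, 12.8 and 17.7 CPM without. In both conditions, 8 members (*Fosb*, *Egr1*, *Egr3*, *Dusp5*, *Dusp6*, *Spry1*, *Spry2* and *Etv4*) were lower by at least 0.5 on the log2 scale in control replicate 2 than in the mean of replicates 1 and 3. Another 5 (*Klf6*, *Dusp1*, *Dusp4*, *Dusp8* and *Dusp16*) were higher by as much, and *Klf6* reached 64.0, 142 and 51.6 CPM in stimulated control cells. In *Adam17*-KD cells, 0 members shifted that far in replicate 2 of both conditions. *Malat1*, a nuclear noncoding RNA, was at 1500 CPM in stimulated and 1279 CPM in unstimulated control replicate 2, against 261.1 to 609 CPM in the other control libraries. In *Adam17*-KD cells *Malat1* was at 474, 932 and 471 CPM with cytokines and at 1233, 1185 and 566 CPM without, so that in the unstimulated group replicate 1 was as high as replicate 2. Results were therefore also computed with both control libraries numbered 2 left out, while the *Adam17*-KD libraries with high *Malat1* were kept. Members were themselves shifted in the libraries left out. Their values therefore move with this choice, and a call gained in this way is no separate support.

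**Figure D1:**
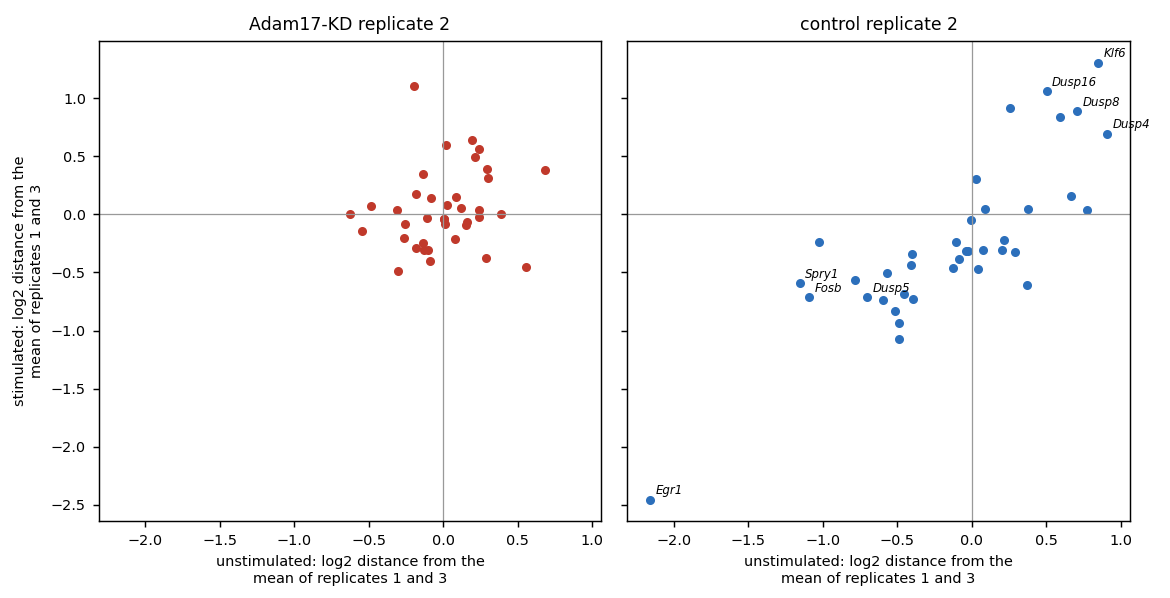
Distance of replicate 2 from the mean of replicates 1 and 3 of its group, in log2 CPM, for each of the 38 genes (points), with the unstimulated condition on the x axis and the stimulated condition on the y axis, for *Adam17*-KD cells (left) and control cells (right). In control cells the points spread along the diagonal, with *Egr1* lowest at -2.16 and -2.46 and *Klf6* (0.85 and 1.31) and *Dusp4* (0.91 and 0.69) among the high ones, whereas in *Adam17*-KD cells 0 genes lie beyond 0.5 in the same direction on both axes.

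Promoters of the members were searched for the DNA motifs through which this pathway and the cytokines are known to act. Of the 38 genes, 29 had a promoter in the RefSeq table (GRCm38.p6, 250 bases before to 50 after the start), and *Phlda1*, *Ier2*, *Spry4*, *Egr1*, *Etv4*, *Fosl1*, *Egr3*, *Myc* and *Dusp4* had no entry. The CArG box, the core that serum response factor binds in serum response elements, was found on either strand in 2 of the 29 genes, *Dusp5* and *Egr2* (6.90%), and in 1.81% of all 27025 genes of the table, each counted as a hit if any of its promoters held the motif. The NF-kB consensus was found in *Ier3*, *Fos*, *Fosb*, *Fosl2* and *Nr4a1* (17.2% of the members, 5.14% of all genes), and the CRE (TGACGTCA), bound by CREB and ATF factors, in *Dusp1* and *Dusp8* (6.90% and 2.03%). The EGR site (GCGNGGGCG) was in 7 genes, *Dusp2*, *Dusp16*, *Fosb*, *Fosl2*, *Klf2*, *Klf4* and *Nr4a1* (24.1% and 6.27%). The AP-1 site (TGANTCA; 8.97% of all genes) and an ETS site (CCGGAAGT; 4.31%) were in 0 of the 29. The EGR and NF-kB motifs both occur in *Fosb*, *Fosl2* and *Nr4a1*. These matches describe letters in a short window and were not tested as binding sites. The 4 windows below lie upstream of a RefSeq start of *Dusp5*, *Egr2*, *Ier3* or *Dusp1*, genes whose values the results turn on. Each is read 5′ to 3′ on the strand of the gene, with the motif in capitals. The gene coordinates given further on come from GENCODE. By these, the windows of *Egr2* and *Dusp1* lie inside the gene, since that annotation has a start further out. For *Dusp5* the window is chr19:53529043-53529102 on the plus strand, with 2 adjoining CArG boxes between 82 and 63 bases before the start. For *Egr2* it is chr10:67537777-67537826 on the plus strand with 1 CArG box, a site shared by 3 of its 5 listed starts. For *Ier3* it is chr17:35821601-35821650 on the plus strand with the NF-kB consensus, read on the minus strand, and for *Dusp1* it is chr17:26508588-26508635 on the minus strand with the CRE.
Dusp5: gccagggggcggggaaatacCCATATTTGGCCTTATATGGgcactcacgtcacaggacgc
Egr2: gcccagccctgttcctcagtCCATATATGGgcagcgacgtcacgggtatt
Ier3: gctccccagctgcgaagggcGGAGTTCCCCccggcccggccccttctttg
Dusp1: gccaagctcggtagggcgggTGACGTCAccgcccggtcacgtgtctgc

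The members spanned a wide range of levels. As CPM per kb of exon, a level that can be compared between genes, *Fosl1*, *Ier3*, *Jun*, *Myc* and *Klf4* were over 50 in each of the 4 groups. *Fosl1*, the FOS-type subunit that is often high in transformed cells, was at 215 ± 13.1 and 209 ± 29.2 CPM per kb in stimulated *Adam17*-KD and control cells, and at 182 ± 21.9 and 221 ± 35.6 in unstimulated ones (mean ± SD, n = 3). Of its 2033 exonic bases, 1163 are shared with Ccdc85b on the opposite strand, and of the 1668 of *Jund*, 877 are shared with Gm11175, so that these levels may hold reads of the other gene. *Fos*, the founding member of that family, was at 0.249, 0.234, 0.229 and 0.238 CPM per kb in the same order, on 5 to 14 counts per library. *Fosb*, *Egr2*, *Egr3* and *Etv1* were also under 1 CPM per kb in each group. After *Fosl1*, the AP-1 genes with the highest levels in unstimulated control cells were *Jun*, *Jund* and *Junb*, with 159 ± 13.2, 54.6 ± 18.1 and 31.0 ± 0.525 CPM per kb. Among the DUSPs, *Dusp7* and *Dusp6*, which act on ERK in the cytoplasm, were at 11.7 ± 2.37 and 10.4 ± 2.91 CPM per kb in unstimulated control cells. *Dusp4*, *Dusp5*, *Dusp1* and *Dusp2*, the inducible nuclear ones, were at 10.8 ± 4.25, 9.36 ± 2.43, 5.18 ± 1.37 and 1.88 ± 0.449, so that *Dusp4*, *Dusp5*, *Dusp6* and *Dusp7* lay within the spread of one another and *Dusp1* and *Dusp2* lay below them. Of the Sprouty and Spred genes, *Spred2* and *Spry2* had 8.87 ± 1.16 and 8.60 ± 1.88 CPM per kb in these cells, *Spred1* and *Spred3* had 5.00 ± 0.510 and 4.56 ± 0.703, and *Spry4* and *Spry1* had 1.97 ± 0.487 and 1.497 ± 0.598, each pair within its spread.

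**Figure D2:**
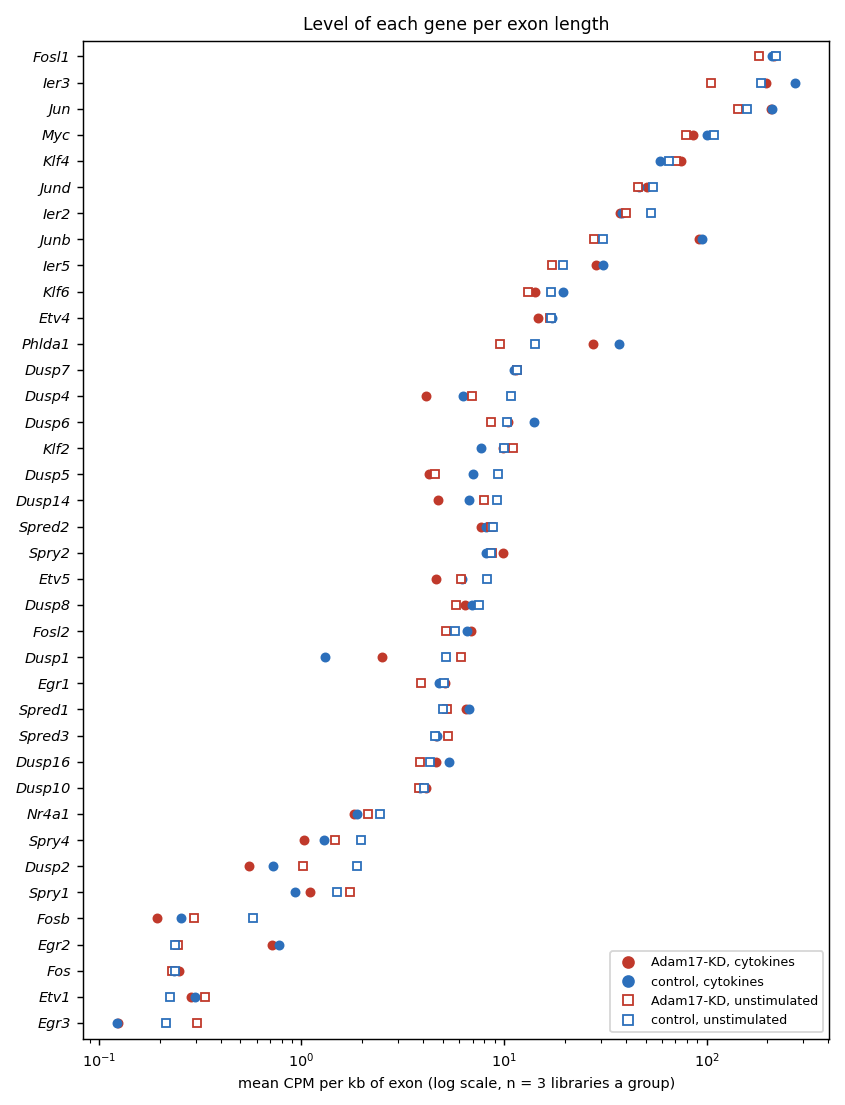
Mean level of each of the 38 genes in CPM per kb of exon (log axis) in the 4 groups of 3 libraries, filled circles for stimulated and open squares for unstimulated cells, red for *Adam17*-KD and blue for control. Genes are ordered by unstimulated control cells, with *Fosl1* at 221 and *Egr3* at 0.215; the 4 symbols of most genes lie close together, and *Junb*, *Phlda1*, *Egr2* and *Dusp1* show the cytokine response as a gap between circles and squares.

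*Adam17*-KD cells were first compared with control cells without cytokines. *Ier3* was called lower in *Adam17*-KD cells, and the phosphatase *Dusp5* was lower with less certainty. The AP-1, EGR, Sprouty, Spred and ETS genes were not called. At an unadjusted p under 0.05 (edgeR), 7 members were lower and 0 higher, where 461 of all 14673 genes were lower and 648 higher. *Ier3*, an immediate early gene whose product affects cell survival and ERK signalling, was at 106, 109 and 144 CPM in *Adam17*-KD cells, against 215, 199 and 215 CPM in control cells. Each *Adam17*-KD library was below each control library. The log2 fold change was -0.81 ± 0.14 (adjusted p = 0.0192, edgeR), or 0.570 times the control level, with a 95% interval of -1.11 to -0.51. *Ier3* lies on chromosome 17 at 35821684 to 35822923 on the plus strand of mm10, and no other gene of the annotation overlaps its exons. It was the 1 member called lower, and 0 members were called higher, where 0.0409% of all genes tested were called lower and 0.429% higher.

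*Dusp5* (chromosome 19 at 53529109 to 53542431 on the plus strand), which dephosphorylates ERK in the nucleus and whose upstream window is shown above, was at 11.0, 10.8 and 12.2 CPM in *Adam17*-KD cells, against 25.8, 16.3 and 27.3 CPM in control cells. The groups did not overlap, and the lowest control value was that of replicate 2. Its log2 fold change of -1.03 ± 0.23 did not pass the test (adjusted p = 0.0757). *Myc* (chromosome 15 at 61985391 to 61990374 on the plus strand), the growth-promoting transcription factor, had 212, 206 and 225 CPM in *Adam17*-KD cells, against 318, 289.9 and 279 CPM in control cells, again without overlap and without a call (-0.46 ± 0.12, adjusted p = 0.169). These 2 groups were taken as paired by replicate number, which the main fit leaves out. A block by replicate number was fitted to all 12 libraries. It therefore also covers stimulated *Adam17*-KD libraries whose numbers did not pair throughout, and is not a block of these 2 groups alone. With it, edgeR called 3 members lower, where 0.129% of all genes were called lower and 0.756% higher. They were *Ier3* (adjusted p = 0.0213), *Dusp5* (adjusted p = 0.0144) and *Phlda1*, a pleckstrin homology-like protein of the early response (adjusted p = 0.0487). *Phlda1* was at 24.5, 18.2 and 20.8 CPM in *Adam17*-KD cells, against 34.5, 25.03 and 34.2 CPM in control cells. The call of *Ier3* ended without *Adam17*-KD replicate 1 (adjusted p = 0.0991) or 2 (0.150), and without control replicate 1 (0.0966), 2 (0.0763) or 3 (0.0951), at log2 -0.71 to -0.85. With both control libraries numbered 2 left out, *Ier3* (log2 -0.83, adjusted p = 0.0262) and *Dusp5* (log2 -1.22, adjusted p = 0.0175) were called, where 0.0536% of all genes were called lower, and *Dusp5* was also called without stimulated control replicate 2 alone (adjusted p = 0.0163). DESeq2 called *Ier3*, *Dusp5* (adjusted p = 0.00343) and *Myc* (adjusted p = 0.0217) lower, where it called 0.170% of all genes lower.

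With cytokines, the same comparison gave no call. Of the 38 genes, 0 were called in either direction with edgeR and 0 with DESeq2, where 0.0273% of all genes were called higher and 0.00682% lower. At an unadjusted p under 0.05, 1 member was higher and 4 were lower, where 3.26% of all genes were higher and 1.35% lower at that limit. *Ier3* stood at 229, 239.5 and 196 CPM in *Adam17*-KD cells, against 348, 277 and 308 CPM in control cells (-0.49 ± 0.14, adjusted p = 0.462), and the groups did not overlap. *Dusp1*, a phosphatase of p38, JNK and ERK that is itself induced by stress and cytokines, was at 8.90, 9.72 and 6.21 CPM in *Adam17*-KD cells, against 3.39, 6.14 and 3.40 CPM in control cells (0.97 ± 0.30, adjusted p = 0.581). All 3 *Adam17*-KD libraries lay above the control libraries, and the lowest of them, 6.21 CPM, was close to control replicate 2. *Dusp5* was at 11.3, 9.06 and 11.2 CPM in *Adam17*-KD cells, against 21.5, 12.1 and 18.6 CPM in control cells (-0.73 ± 0.23, adjusted p = 0.595), and the groups did not overlap. *Dusp14* (-0.51) and *Dusp6* (-0.43) were the other members past the unadjusted limit, and in each the groups overlapped.

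**Figure D3:**
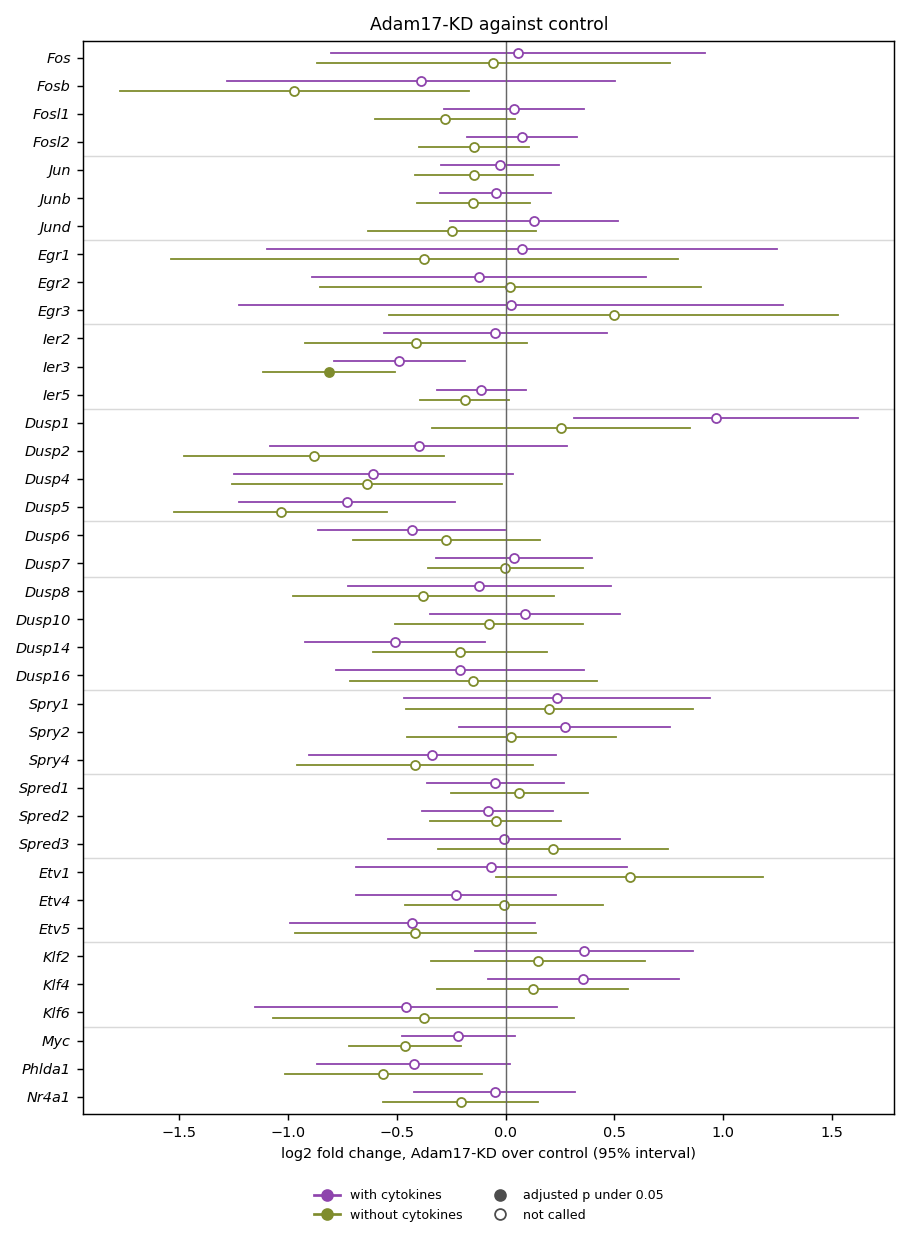
Log2 fold change of *Adam17*-KD over control cells for each of the 38 genes, with its 95% interval, with cytokines (purple, upper line of each pair) and without (olive, lower line); filled points passed an adjusted p of 0.05 and grey lines part the gene groups. *Ier3* without cytokines (-0.81) is the filled point, and the intervals of *Dusp5* (-1.03 and, with cytokines, -0.73) and of *Dusp1* with cytokines (0.97) leave out 0 without a call.

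Averaged over both conditions, 2 members were called lower in *Adam17*-KD cells and 0 higher, where 0.184% of all genes were called lower and 1.06% higher. They were *Ier3* (-0.65 ± 0.10, adjusted p = 0.00593) and *Dusp5* (-0.88 ± 0.16, adjusted p = 0.0175), at 0.637 and 0.543 times the control level. *Myc* was next (-0.34 ± 0.08, adjusted p = 0.0827). At an unadjusted p under 0.05 (edgeR), 11 members were lower and 1 higher, where 610 of all 14673 genes were lower and 979 higher. The call of *Ier3* held in each of the 17 alternatives tried (highest adjusted p = 0.0213). That of *Dusp5* ended without unstimulated *Adam17*-KD replicate 2 (adjusted p = 0.0668), stimulated *Adam17*-KD replicate 2 (0.0645), unstimulated control replicate 1 (0.0570) or stimulated control replicate 1 (0.0501). With both control libraries numbered 2 left out, 6 members were called: *Ier3* (log2 -0.70), *Dusp5* (-1.08), *Myc* (-0.39), *Phlda1* (-0.65) and *Ier2* (-0.44), an early-response gene, lower, and *Dusp1* (0.88) higher, where 0.228% of all genes were called lower and 0.939% higher. Without stimulated control replicate 2 alone there were 4, namely *Ier3*, *Dusp5*, *Myc* and *Phlda1*, all lower, where 0.288% of all genes were called lower. *Dusp5* was low and *Dusp1* high in these control libraries. Leaving them out therefore widens the difference of both genes by itself, and the added calls are no separate support. Of the members whose values are given by library, on the opposite strand *Dusp5* shares 547 exonic bases with AC137853.2, *Phlda1* 727 with Gm28592, *Jun* 232 with Junos, *Junb* 173 with Prdx2 and *Dusp1* 11 with Ergic1. The sources do not say whether reads were counted by strand, so that reads of these pairs cannot be told apart.

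The size of the difference varied among the gene groups. The median log2 fold change over the 38 members was -0.17 without cytokines, where the median of all genes was -0.01, and -0.06 with cytokines, where it was 0.01. Without cytokines 28 of the 38 had a negative value, where 7681 of all 14673 genes did, and with cytokines 25, where 7128 did. Of the 38, 21 had a negative value in both conditions, 6 a positive value in both, and 11 had values of opposite sign. These joint counts were not made over all genes. The inducible nuclear DUSPs did not share a direction: averaged over both conditions, *Dusp5* (-0.88), *Dusp2* (-0.64, adjusted p = 0.229) and *Dusp4* (-0.62, adjusted p = 0.237) had negative values and *Dusp1* a positive one (0.61, adjusted p = 0.243). *Dusp2*, an ERK and p38 phosphatase, was at 1.70, 1.88 and 2.53 CPM in unstimulated *Adam17*-KD cells, against 4.78, 3.49 and 3.05 CPM in unstimulated control cells. Among the PEA3 factors, which are standard readouts of ERK output, *Etv5* (-0.42) and *Etv4* (-0.12) were not called. *Etv1* was at 3.84, 5.06 and 4.46 CPM in unstimulated *Adam17*-KD cells, against 2.58, 2.40 and 3.99 CPM in unstimulated control cells, and the groups overlapped. *Dusp6*, the DUSP most used as a readout of ERK activity, had 25.3, 27.0 and 28.5 CPM in unstimulated *Adam17*-KD cells, against 30.8, 24.4 and 42.3 CPM in unstimulated control cells (-0.27 ± 0.20, adjusted p = 0.827). *Spry4*, *Spry2* and *Spry1* averaged -0.38, 0.15 and 0.22, and *Spred1*, *Spred2* and *Spred3* 0.01, -0.06 and 0.11, with no call. For *Egr1* the interval without cytokines ran over -1.54 to 0.79 on the log2 scale, with control replicate 2 far below its mates. Among the KLF factors, which are early targets in many cell types, *Klf6* averaged -0.42, *Klf4* 0.24 and *Klf2* 0.25, and the orphan nuclear receptor *Nr4a1* -0.13, with no call. *Klf6* had its highest values in control replicate 2 of both conditions. The phosphatases of p38, JNK and other kinases lay at -0.36 (*Dusp14*), -0.25 (*Dusp8*), -0.18 (*Dusp16*) and 0.01 (*Dusp10*), and *Dusp7* at 0.02. The AP-1 genes *Fosl1*, *Fosl2*, *Jun*, *Junb* and *Jund* lay between -0.12 and -0.04, *Fos* at 0.00 and *Fosb*, on 10 to 122 counts per library, at -0.68 (adjusted p = 0.371).

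**Figure D4:**
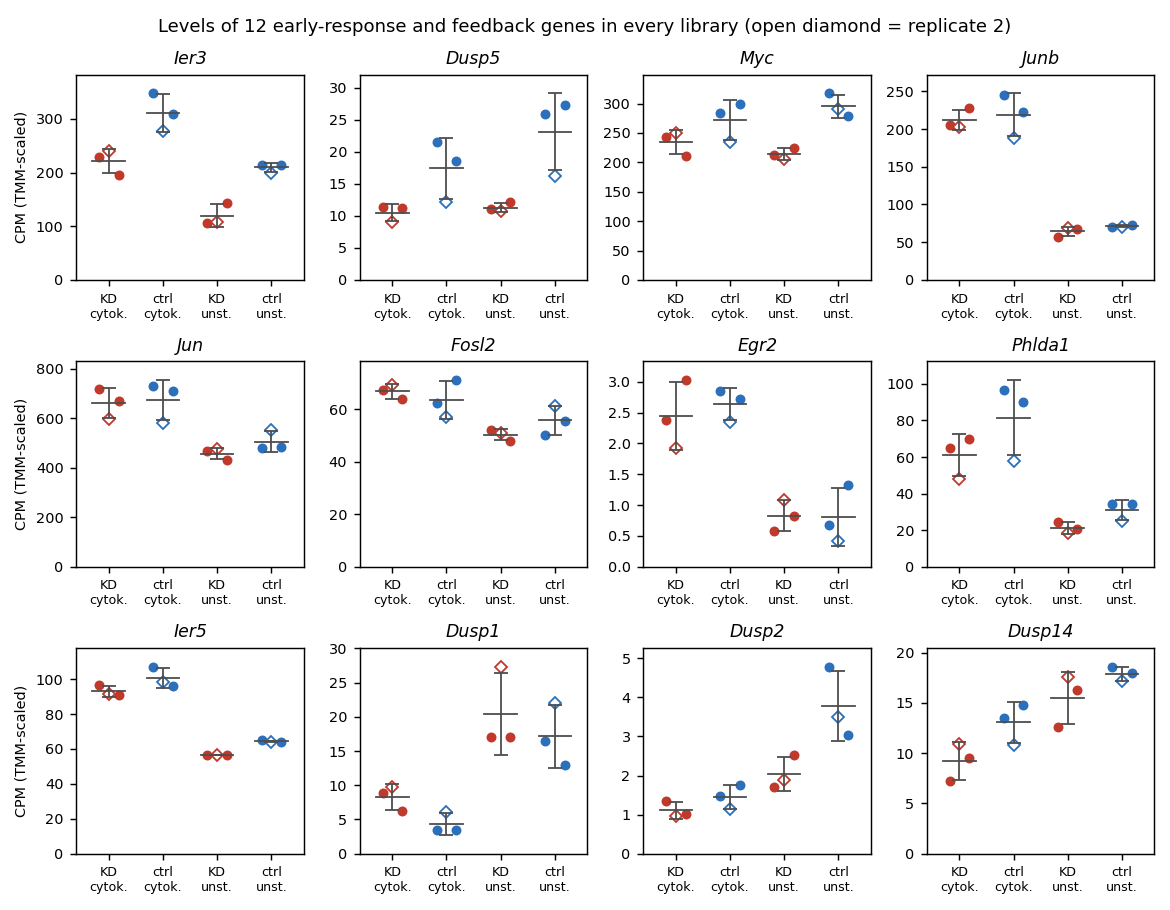
CPM of 12 genes in every library, red for *Adam17*-KD and blue for control, with the stimulated groups left of the unstimulated ones; bars are the mean and SD of 3 libraries and open diamonds mark replicate 2. In *Ier3* the unstimulated *Adam17*-KD libraries (106 to 144 CPM) lie below all others, in *Dusp5* both *Adam17*-KD groups lie below the control group of their condition, and in *Junb*, *Phlda1* and *Egr2* the stimulated groups lie above the unstimulated ones.

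The response to 6 h of IL1β and IFNγ was then compared within each genotype. In both, *Junb*, *Phlda1*, *Egr2*, *Ier5* and *Ier3* rose and *Dusp1* fell. In *Adam17*-KD cells, 7 members were called higher and 2 lower, where 6.37% of all genes were called higher and 1.53% lower. In control cells, 5 were called higher and 2 lower, where the shares of all genes were 5.75% and 1.06%. The 6 members called in both were 66.7% of those called in *Adam17*-KD cells and 85.7% of those called in control cells, and 28 of the 38 members were called in neither. This overlap was not computed over all genes, so that it cannot be read as particular to the members. Leaving out 1 library lowered the count in *Adam17*-KD cells to 5 (without unstimulated replicate 2 or 3 or stimulated replicate 1) or 4 (without stimulated replicate 3), and that in control cells to 4 (without unstimulated replicate 1). The calls over all genes fell in the same settings. In *Adam17*-KD cells they went from 1159 to 853, 938, 967 and 952, in the order given, and in control cells from 999 to 806.

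*Junb* (chromosome 8 at 84974484 to 84978718 on the minus strand), a JUN-type subunit that responds to cytokines as well as to ERK, had the smallest p of the 38 in both genotypes. It was at 206, 203 and 227 CPM in stimulated *Adam17*-KD cells, against 56.9, 68.8 and 67.0 CPM in unstimulated ones (1.72 ± 0.12, adjusted p = 3.08e-07). In control cells it was at 245, 188 and 223 CPM with cytokines, against 70.8, 70.3 and 72.6 CPM without (1.62 ± 0.12, adjusted p = 5.01e-07). The stimulated and unstimulated libraries were far apart in both genotypes. *Jun* (chromosome 4 at 95049034 to 95052222 on the minus strand), the subunit that JNK phosphorylates, was at 716, 597 and 671 CPM in stimulated *Adam17*-KD cells, against 468, 474 and 430.4 CPM in unstimulated ones, and rose (0.53 ± 0.13, adjusted p = 0.0158). In control cells *Jun* was at 731, 581 and 708 CPM with cytokines, against 480.1, 554 and 483 CPM without, and was not called (0.41 ± 0.13, adjusted p = 0.0772), but it was with both control libraries numbered 2 left out (log2 0.58, adjusted p = 0.0137). *Fosl2* (chromosome 5 at 32135801 to 32157842 on the plus strand), a FOS-type subunit, was at 67.4, 69.4 and 63.9 CPM in stimulated *Adam17*-KD cells, against 52.1, 50.9 and 48.0 CPM in unstimulated ones, a rise close to the limit (0.41 ± 0.12, adjusted p = 0.0486). Its call held in 6 of 18 alternatives (highest adjusted p = 0.225) and ended on leaving out any of the 6 *Adam17*-KD libraries, unstimulated control replicate 1 or 3, or stimulated control replicate 1 (adjusted p = 0.0530 to 0.194). *Fos* was at 0.13 in *Adam17*-KD cells and 0.02 in control cells as a log2 fold change, *Fosl1* at 0.24 and -0.08, and neither was called.

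*Egr2* (chromosome 10 at 67535475 to 67542188 on the plus strand), an EGR factor, was at 2.37, 1.93 and 3.03 CPM in stimulated *Adam17*-KD cells, against 0.586, 1.08 and 0.830 CPM in unstimulated ones (1.54 ± 0.39, adjusted p = 0.0223). In control cells it was at 2.85, 2.35 and 2.72 CPM with cytokines, against 0.683, 0.417 and 1.33 CPM without (1.69 ± 0.38, adjusted p = 0.0120). These levels rest on 8 to 56 counts per library. The call ended in *Adam17*-KD cells without unstimulated replicate 1 (adjusted p = 0.125) or 3 (0.0820) or stimulated replicate 1 (0.0581) or 3 (0.0848). In control cells it ended without unstimulated replicate 1 (0.0730) or 2 (0.0504), and with both libraries numbered 2 left out (0.0554). *Egr1*, in contrast to *Egr2*, had a log2 fold change of 0.38 ± 0.55 in *Adam17*-KD cells and -0.07 ± 0.54 in control cells, with no call.

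*Phlda1* (chromosome 10 at 111506286 to 111508645 on the plus strand) was at 64.8, 47.9 and 70.0 CPM in stimulated *Adam17*-KD cells, against 24.5, 18.2 and 20.8 CPM in unstimulated ones (1.52 ± 0.21, adjusted p = 0.000235). In control cells it was at 96.4, 58.0 and 90.1 CPM with cytokines, against 34.5, 25.03 and 34.2 CPM without (1.38 ± 0.21, adjusted p = 0.000466). Stimulated and unstimulated libraries did not overlap in either genotype. *Ier5* (chromosome 1 at 155096361 to 155099636 on the minus strand), an early gene that also responds to stress, was at 96.7, 91.4 and 90.9 CPM in stimulated *Adam17*-KD cells, against 56.5, 56.6 and 56.6 CPM in unstimulated ones (0.72 ± 0.10, adjusted p = 0.000144). Its control libraries had 107, 98.2 and 96.3 CPM with cytokines, against 64.9, 64.2 and 64.2 CPM without (0.64 ± 0.09, adjusted p = 0.000375), a small rise with little spread between libraries. *Ier3* rose in *Adam17*-KD cells (0.89 ± 0.14, adjusted p = 0.000713) and in control cells (0.57 ± 0.14, adjusted p = 0.0224), so that its level in stimulated *Adam17*-KD cells (221 ± 22.9 CPM) was near that of unstimulated control cells (209.6 ± 8.96 CPM, mean ± SD, n = 3). The calls of *Junb*, *Ier5* and *Phlda1* held in both genotypes in all 18 alternatives, as did that of *Ier3* in *Adam17*-KD cells. In control cells the call of *Ier3* ended without unstimulated replicate 1 (adjusted p = 0.0683), 2 (0.0885) or 3 (0.0659) or stimulated replicate 1 (0.103) or 3 (0.0605). That of *Jun* in *Adam17*-KD cells ended without unstimulated replicate 2 (0.0506) or 3 (0.0803) or stimulated replicate 1 (0.0776) or 3 (0.0501).

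Among the phosphatases, *Dusp1* (chromosome 17 at 26505590 to 26562128 on the minus strand) was lower after 6 h of cytokines in both genotypes. It was at 8.90, 9.72 and 6.21 CPM in stimulated *Adam17*-KD cells, against 17.0, 27.3 and 17.0 CPM in unstimulated ones (-1.30 ± 0.29, adjusted p = 0.00968), and at 3.39, 6.14 and 3.40 CPM in stimulated control cells, against 16.4, 22.0 and 13.01 CPM in unstimulated ones (-2.01 ± 0.30, adjusted p = 0.000416). In all 4 groups replicate 2 was the highest. *Dusp14* (chromosome 11 at 84048041 to 84069261 on the minus strand), a small phosphatase without the ERK-binding domain of the larger ones, was at 7.23, 10.9 and 9.55 CPM in stimulated *Adam17*-KD cells, against 12.6, 17.6 and 16.3 CPM in unstimulated ones, and fell (-0.75 ± 0.19, adjusted p = 0.0247). In control cells *Dusp14* was at 13.6, 10.9 and 14.8 CPM with cytokines, against 18.6, 17.2 and 17.98 CPM without (-0.45 ± 0.19, adjusted p = 0.249). *Dusp2* (chromosome 2 at 127336159 to 127338376 on the plus strand) fell in control cells, with 1.49, 1.14 and 1.75 CPM when stimulated, against 4.78, 3.49 and 3.05 CPM when not (-1.36 ± 0.29, adjusted p = 0.00811), and was not called in *Adam17*-KD cells (-0.87 ± 0.31, adjusted p = 0.125). *Dusp4*, an ERK phosphatase of the nucleus, was not called in *Adam17*-KD cells (-0.75 ± 0.30, adjusted p = 0.190) or in control cells (-0.78 ± 0.29, adjusted p = 0.174). The control groups were taken as paired, and with the block, fitted to all 12 libraries, *Dusp4* fell in control cells (adjusted p = 0.0226). There, 1.72% of all genes were called lower. *Dusp5* had values of -0.11 in *Adam17*-KD cells and -0.41 in control cells, and *Dusp6* had positive values (0.28 in *Adam17*-KD cells and 0.44 in control cells); neither was called. In the Sprouty family, *Spry1* (-0.64 and -0.68) and *Spry4* (-0.52 and -0.60) had negative values and *Spry2* (0.18 and -0.06) small ones, and the Spred genes lay between -0.20 and 0.42, with no call. In *Adam17*-KD cells the call of *Dusp1* ended without unstimulated replicate 2 (adjusted p = 0.0573) or stimulated replicate 3 (0.0528). That of *Dusp14* ended without unstimulated replicate 2 (0.103) or 3 (0.0667) or stimulated replicate 1 (0.124) or 3 (0.0616). The call of *Dusp2* in control cells ended without unstimulated replicate 1 (0.0555), and with both libraries numbered 2 left out (0.0520).

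**Figure D5:**
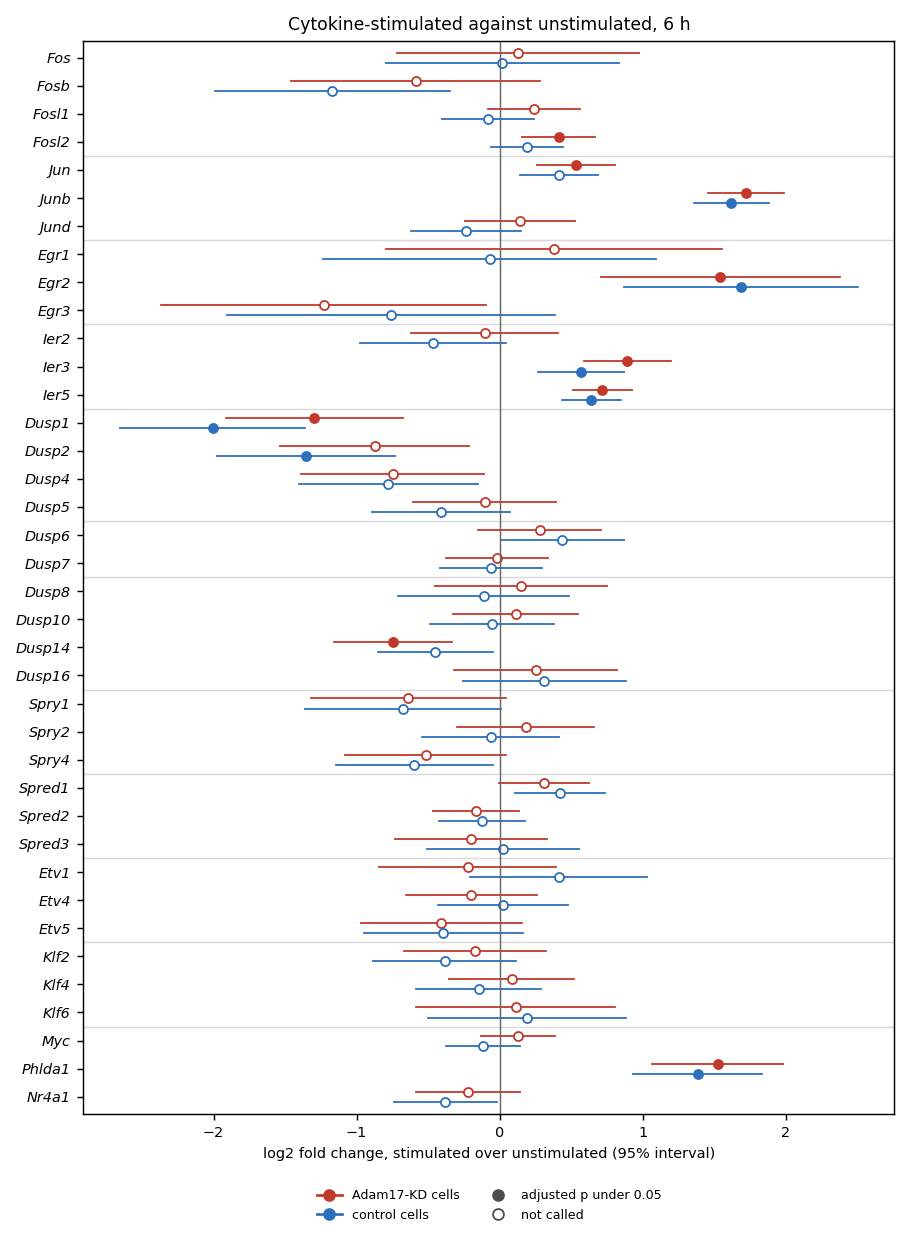
Log2 fold change of stimulated over unstimulated cells for each of the 38 genes, with its 95% interval, in *Adam17*-KD cells (red, upper line of each pair) and control cells (blue, lower line); filled points passed an adjusted p of 0.05. *Junb* (1.72 and 1.62), *Phlda1* (1.52 and 1.38) and *Egr2* (1.54 and 1.69) lie to the right in both genotypes and *Dusp1* (-1.30 and -2.01) to the left.

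Whether the response to cytokines differed between *Adam17*-KD and control cells was tested directly. Of the 38 members, 0 were called with edgeR and 0 had an unadjusted p under 0.05; of all genes tested, 0% were called and 1.51% had such a p, and DESeq2 called 1 gene, which was no member. The smallest p among the members was that of *Dusp1*, whose fall was smaller by 0.71 on the log2 scale in *Adam17*-KD cells (unadjusted p = 0.104, 95% interval -0.17 to 1.59). *Ier3* had a difference of 0.32 (unadjusted p = 0.127, 95% interval -0.10 to 0.75) and *Etv1* one of -0.64 (unadjusted p = 0.140, 95% interval -1.51 to 0.24). In *Etv1* the stimulated values were 4.53, 3.14 and 3.73 CPM in *Adam17*-KD cells, against 3.27, 3.11 and 5.48 CPM in control cells. The interval of the difference was 0.58 to 3.30 wide over the 38 genes, with a median of 1.37, so that differences inside these intervals were not detectable here. *Jun*, *Fosl2*, *Dusp14* and *Dusp2*, called in 1 genotype alone, were not shown to differ between the genotypes.

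Other genes of the pathway were counted as background to these values. Of the 38 genes tested in the list of the RAS-ERK cascade (receptors, adaptors, RAS, RAF, MEK, ERK and effectors), which leaves out the listed epidermal growth factor receptor gene *Egfr* because its counts did not pass the filter, 0 were called in any comparison of *Adam17*-KD with control cells, and the same held for the 17 tested in the p38 and JNK list. At an unadjusted p under 0.05 the RAS-ERK list had 1 gene without cytokines, 0 with cytokines and 3 when averaged, where DESeq2 called 1, 0 and 1, and the p38 and JNK list had 0 throughout with both tools. Of all 14673 genes tested, 1109, 676 and 1589 had such a p with edgeR. The lists were chosen with earlier results of these data known, so that their counts are a description. Averaged over both conditions, 0.184% of all genes were called lower in *Adam17*-KD cells and 1.06% higher. In a list of 34 other early-response and ERK output genes, 5 were called lower in *Adam17*-KD cells when both conditions were averaged and 0 higher, with a list median of -0.16. They were *Areg*, the ADAM17 substrate amphiregulin (-1.30 ± 0.17, adjusted p = 0.00326), *Csrnp1*, a nuclear early gene (-0.67 ± 0.12, adjusted p = 0.0175), *Ereg*, the related ligand epiregulin (-0.65 ± 0.12, adjusted p = 0.0176), *Ptgs2*, which encodes cyclooxygenase-2 (-0.55 ± 0.10, adjusted p = 0.0200), and, named after its value was seen, *Odc1*, the first enzyme of polyamine synthesis (-0.43 ± 0.09, adjusted p = 0.0315). *Areg* averaged 6.44 CPM in unstimulated *Adam17*-KD cells and 18.4 CPM in unstimulated control cells, and was the 1 gene of the list called without cytokines (-1.51 ± 0.24, adjusted p = 0.0136). In response to cytokines, 12 genes of that list rose and 1 fell in *Adam17*-KD cells, and 11 rose and 4 fell in control cells. Among them were *Csrnp1* (3.03 ± 0.19 in *Adam17*-KD and 2.84 ± 0.18 in control cells), *Lif*, a cytokine of the interleukin-6 family (2.72 ± 0.21 and 2.42 ± 0.21), *Zfp36*, which destabilises cytokine mRNAs (2.36 ± 0.15 and 2.29 ± 0.15), and *Nfkbia*, the inhibitor of NF-kB (1.84 ± 0.11 and 1.99 ± 0.11). In the RAS-ERK list, 6 genes rose and 1 fell in *Adam17*-KD cells, and 4 rose and 1 fell in control cells, with *Map2k1*, which encodes MEK1, at 0.64 ± 0.11 and 0.74 ± 0.11. In the p38 and JNK list the called gene was *Map3k8* in both genotypes (1.73 ± 0.30 and 1.71 ± 0.31), a kinase upstream of MEK in inflammatory signalling.

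The genes whose log2 CPM followed *Ier3* most closely over the 12 libraries were *U90926* (Pearson r = 0.960), *Cndp2* (0.950), *Mad1l1* (0.947), *Wbscr22* (0.945) and *Procr* (0.942). All 12 points share the condition and the genotype, which both move *Ier3*, and these values are a description.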

How the data were processed

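Poly(A)+ RNA of 12 MC38CEA libraries (4 groups of 3) was read with an Ion Total RNA-Seq kit. The deposited table holds raw counts of reads for each gene, as whole numbers that the authors had not normalized. Per the labels the build was mm10, and the aligner, the counting tool and the use of strand are not given in the sources used here. In 2 lines the gene name had become a date, and they (0.00809% of counts) were left out. The deposited comparisons of the authors (fold changes and p-values) were not used. In R 4.3.3, edgeR 4.0.16 kept 14673 of 43269 genes (filterByExpr, minimum count 10), scaled libraries by TMM and fitted a quasi-likelihood model with 1 mean per group to all 12 libraries. Contrasts were tested over all genes with Benjamini-Hochberg adjustment, and adjusted p-values under 0.05 were called. CPM uses the TMM-scaled total. The SE is the absolute log2 fold change over the square root of F. Exon lengths and coordinates come from GENCODE vM21 (mm10), and promoters from RefSeq (GRCm38.p6).

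No pair of libraries of 1 group agreed within sampling noise (chi-square per degree of freedom of 15.8 to 68.8). The labels number the replicates. Deviations from the group means of same-numbered libraries correlated at 0.22, 0.28 and 0.46 between the unstimulated *Adam17*-KD and control groups, and at 0.13, 0.44 and 0.49 between the 2 control groups, so that these were taken as paired. The other comparisons had correlations of 0.45, 0.11 and -0.25 (stimulated *Adam17*-KD and control) and -0.17, 0.30 and -0.11 (stimulated and unstimulated *Adam17*-KD) and were not.

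The members, gene lists, tests and motifs were chosen with earlier results of these data known. The genes described by library were those called in at least 1 contrast and, where a contrast had fewer than 3, those with the smallest p up to 3. From each pathway list, at most 4 called genes per contrast, those of lowest adjusted p, were named, and *Odc1* was added after its value was seen. Alternatives were a replicate block fitted to all 12 libraries, DESeq2 1.42.0, RLE scaling, no filter, a fit to the groups compared, and leaving out each library. The matches of 1 of the promoter motifs searched are not reported here. Leaving out both control libraries numbered 2 was added after seeing the data.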

Additional observations from a re-analysis of the deposited data

How the results depend on the processing

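The count of members called depended on the settings as follows. For *Adam17*-KD against control without cytokines it was 1 with edgeR, 3 with the replicate block, 3 with DESeq2, 2 with no filter on low counts, 2 with both control libraries numbered 2 left out, and 0 to 2 when each library was left out in turn. With cytokines it was 0, and 1 with no filter (*Dusp1*, log2 0.96, adjusted p = 0.0188). Averaged over both conditions it was 2, against 5 with the replicate block (*Ier3*, *Dusp5*, *Phlda1* and *Dusp4* lower, *Dusp1* higher), 6 with no filter, 6 with both control libraries numbered 2 left out, and 1 to 4 with each library left out. The response to cytokines gave 9 in *Adam17*-KD cells (4 to 9 with a library left out) and 7 in control cells (4 to 9), and the difference between the responses 0 under each setting run. The cause of these shifts was not tested. In the 28 comparisons of single members followed through these settings, none changed direction. Values near 0 that were not called could do so, as in *Egr1*, whose averaged value was -0.15 with edgeR and 0.09 with the block. Of the 498 values of those 28 comparisons, 443 stayed on their side of the threshold, 10 passed it and 45 no longer did. Leaving out a library leaves 2 in its group, whose spread is then taken from all groups. Over all genes, the block called 130, 11, 302, 1447, 1215 and 0 genes and DESeq2 230, 74, 443, 1410, 1215 and 1 in the order without cytokines, with cytokines, averaged, response in *Adam17*-KD cells, response in control cells and difference, against 69, 5, 182, 1159, 999 and 0 with edgeR. In the averaged comparison, no filter called 406 of 29878 genes, leaving out both control libraries numbered 2 called 174, and leaving out 1 library called 69 to 234. For the response to cytokines, leaving out 1 library called 853 to 1332 genes in *Adam17*-KD cells and 806 to 1077 in control cells. Without cytokines, *Adam17*-KD against control gave 10 to 126. Replicate numbers of the averaged comparison and of the response in *Adam17*-KD cells did not pair the libraries throughout. The block counts there are thus no more than a comparison of fits. Since the block was fitted to all 12 libraries, its counts for the paired comparisons also rest in part on libraries that did not pair. With the block, *Dusp4* was called in the response of *Adam17*-KD cells (adjusted p = 0.0175). At this depth *Fos*, *Egr2* and *Egr3* had 2 to 56 counts per library, which limits them to large changes.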
